A study of Mus musculus with 72 samples.

Results

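The 8 genes described here are those that make or break down the water-holding material of the outer skin: the channel Aqp3, the hyaluronan synthase Has3, the filaggrin-processing genes Asprv1, Padi1, Padi3, Casp14 and Blmh, and the histidine ammonia-lyase Hal. They were chosen by symbol and were found among the 46078 gene identifiers of a mouse skin series. The series measured RNA of the interfollicular epidermis, the sheet of skin between the hair follicles, lifted off back skin with the enzyme dispase, in 72 libraries of 1 mouse each. All animals were C57BL/6 females of 8 weeks that had lived under 12 h of light per day and then spent 156 to 176 h in darkness, with 4 animals of every genotype at 6 time points. WT animals carried K14-Cre, a Cre recombinase under the keratin 14 promoter, which is active in basal keratinocytes and their descendants and also in other stratified epithelia. KO animals carried Bmal1-stopFL without Cre, in which a stop cassette flanked by loxP sites blocks the clock gene Bmal1 (symbol Arntl) throughout the body. RE animals carried Bmal1-stopFL together with K14-Cre, so that the cassette is removed where the keratin 14 promoter has been active. The series asked which daily rhythms of the epidermis need clocks in other tissues, and KO animals differ from WT and RE also in lacking Cre.

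As background, profilaggrin is stored in the granules of the last living keratinocytes and is cut into filaggrin, which binds keratin filaments. Filaggrin is then deiminated, freed from keratin and degraded to amino acids and their derivatives, the natural moisturising factor that holds water in the stratum corneum. Aquaporin 3 brings glycerol and water into living keratinocytes, and hyaluronan between the cells binds water there.

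Depth was 24.5 to 95 M counts per library. Counts of Arntl, the targeted gene, had a mean of 54.1 ± 30.15 CPM in WT, 30.9 ± 1.92 in KO and 61.0 ± 8.10 in RE (CPM, counts scaled to the library total; mean ± SD, n = 24). Its transcript is therefore not absent from KO, and its peak-to-trough swing was 2.19 ± 0.13 log2 units in WT (± SE), 0.08 ± 0.13 in KO and 0.23 ± 0.13 in RE, called in WT (adjusted p = 2.05e-20) and not in KO (0.893) or RE (0.568). The summed level of 5 spinous keratinocyte markers, keratins 1 and 10 among them, was at least 13020 CPM in each of the 72 libraries, as the tissue label says. The 4 endothelial markers summed to at most 2.89 CPM. Markers of other cells were present: in WT, 6 sebaceous gland markers summed to 370.5 to 1741 CPM. Most of that sum was Scd1, with a mean of 671 CPM beside 35.9 for Mgst1 and 7.57 for Elovl3. Awat2, Awat1 and Mc5r had means of 1.95, 1.77 and 1.54 CPM. The 5 Langerhans cell markers summed to 65.75 to 399.3 CPM in WT. Profilaggrin itself (Flg) had 7 reads in all 72 libraries together and was at 0 in 66 of them. It was not tested, and the sources used here do not state how reads in repeats were counted. A pair of libraries stood apart at time point 6: replicate 4 of KO and replicate 4 of WT had the highest spinous marker sums (57850 and 38990 CPM, other libraries 13020 to 28880) and the lowest sums of 6 basal markers (4849 and 12490 CPM, other libraries 17780 to 36670). Replicate 1 of RE at time point 6 was apart with them on the first principal component of log2 CPM. In WT, KO and RE order, these 3 libraries had mitochondrial shares of 8.36%, 5.47% and 5.94%; replicate 2 of WT at that time point had 5.70%, and the next highest library had 3.69%. Their erythrocyte marker sums were 268, 623 and 195.5 CPM, where the medians were 31.1 CPM in WT, 68.9 in KO and 48.5 in RE. The part of these differences in the results was not tested.

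The sequences before the RefSeq starts of the genes that the results turn on are shown first. Windows of 250 bases before the RefSeq start (GRCm38.p6) were found for 7 of the 8 genes, and Has3 had no entry in the table. Those of Asprv1 and Blmh, the members higher in KO, are shown with those of Aqp3 and Hal, which were not called. Bases that GENCODE counts as transcribed were left out, 10 for Asprv1 and 152 for Blmh. The Blmh window lies inside the span that GENCODE gives the gene, because a further annotated transcript starts upstream. Capitals mark matches to the motifs named after the sequences.
Asprv1, chr6:86627924-86628163, plus strand: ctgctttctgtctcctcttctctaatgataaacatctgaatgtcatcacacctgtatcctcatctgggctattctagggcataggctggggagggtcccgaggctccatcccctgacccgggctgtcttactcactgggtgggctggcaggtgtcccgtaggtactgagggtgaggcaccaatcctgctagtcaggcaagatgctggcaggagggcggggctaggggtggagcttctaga
Blmh, chr11:76945406-76945503, plus strand: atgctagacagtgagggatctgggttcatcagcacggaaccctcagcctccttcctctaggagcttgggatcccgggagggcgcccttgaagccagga
Aqp3, chr4:41098184-41098433, minus strand: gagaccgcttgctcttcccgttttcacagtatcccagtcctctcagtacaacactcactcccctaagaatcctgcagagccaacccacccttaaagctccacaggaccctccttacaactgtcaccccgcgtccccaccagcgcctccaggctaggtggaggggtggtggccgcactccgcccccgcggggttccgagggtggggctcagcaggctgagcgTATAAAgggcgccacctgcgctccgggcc
Hal, chr10:93488518-93488767, plus strand: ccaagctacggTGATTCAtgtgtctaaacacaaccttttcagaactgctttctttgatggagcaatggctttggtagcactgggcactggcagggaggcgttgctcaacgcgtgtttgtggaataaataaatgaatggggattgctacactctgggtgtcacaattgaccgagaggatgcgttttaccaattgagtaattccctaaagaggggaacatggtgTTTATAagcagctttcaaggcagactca
Motifs were searched on both strands. Of the 7 full windows, 0 held the clock E-box CACGTG, which 6.02% of 32851 mouse promoters hold in windows of the same length. The E-prime box CACGTT (3.85% of promoters), the D-box TTANGTAA (2.06%) and the nuclear receptor half-site AGGTCA (14%) were also found in 0 of the 7. The AP-1 motif TGANTCA (6.75%) was found in the Hal window, 239 bases before the start. The TATA box TATAAA (12.4%) was found 29 bases before the start of Aqp3 and, on the opposite strand, 28 bases before that of Hal. A match is a description of the letters, and no match says nothing of sites outside the window.

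Levels differed widely among the members. Per kilobase of exon in WT, the mean level was 52.4 CPM per kb for Aqp3, 49.9 for Hal, 42.7 for Asprv1, 33.3 for Casp14 and 21.1 for Blmh. Has3 had 2.05 CPM per kb, Padi3 0.0351 and Padi1 0.0089. The first 5 were thus abundant transcripts and the deiminases were near the detection limit in all 3 genotypes. In KO the order changed at the top, where Asprv1 led with 67.6 CPM per kb before Aqp3 with 57.5. All members except Padi1 passed the filter on low counts, so that 7 of 8 were tested.

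The first question was whether these genes cycle over the day. For each genotype a 24 h cosine was fitted and its swing from peak to trough tested, with time points taken as 4 h apart. In edgeR no call of a rhythm was made for the 7 tested members: 0 in WT, 0 in KO and 0 in RE, where 11%, 5.87% and 2.7% of all 18538 tested genes were called. Without adjustment, p was under 0.05 for 0, 0 and 1 of them, and neither DESeq2 nor voom called any (0 in each). Hal had the widest swings among the abundant members. At time point 2 its mean was 341 ± 16.2 CPM in WT, 272 ± 50.8 in KO and 289 ± 38.5 in RE, and at time point 5 it was 207 ± 29.3, 199 ± 60.9 and 243 ± 43.8 (SD, n = 4). The means of time point 5 were thus below those of time point 2 in every genotype, but these are the lowest and highest time points of WT only. In KO the mean was highest at time point 6 (342 CPM) and lowest at time point 4 (181 CPM). In RE it was highest at time point 3 (353 CPM) and lowest at time point 4 (205 CPM). The fitted swing of Hal was 0.51 ± 0.27 log2 units in WT, 0.69 ± 0.27 in KO and 0.50 ± 0.27 in RE (± SE), with edgeR adjusted p = 0.438, 0.231 and 0.562. Aqp3 swung by 0.42 ± 0.23 in WT (adjusted p = 0.417) and Has3 by 0.58 ± 0.37 (0.554). Casp14 and Blmh had the smallest WT swings, 0.08 ± 0.15 and 0.01 ± 0.17 log2 units. A missed threshold does not show that these genes are flat.

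Nor was a difference of rhythm between genotypes called for any tested member: the edgeR counts were 0 of 7 for KO against WT, 0 for RE against WT and 0 for RE against KO, where 6.2%, 2.17% and 0% of all tested genes were called. Without adjustment, p was under 0.05 for 0, 1 and 0 of them, and neither DESeq2 nor voom called any (0 in each). The gene with that small p was Padi3, which had few reads and is described further on. Clock output genes were fitted in the same model. Of 9 PAR bZIP and E-box clock factors 8 were called rhythmic in WT and 1 in RE. Their rhythm differed between KO and WT for 7 of the 9 and between RE and WT for 6. Between RE and KO edgeR called 0 (0 also with p under 0.05 before adjustment). The D-box binding factor Dbp swung by 4.67 ± 0.43 log2 units in WT (adjusted p = 1.13e-10).

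**Figure D1:**
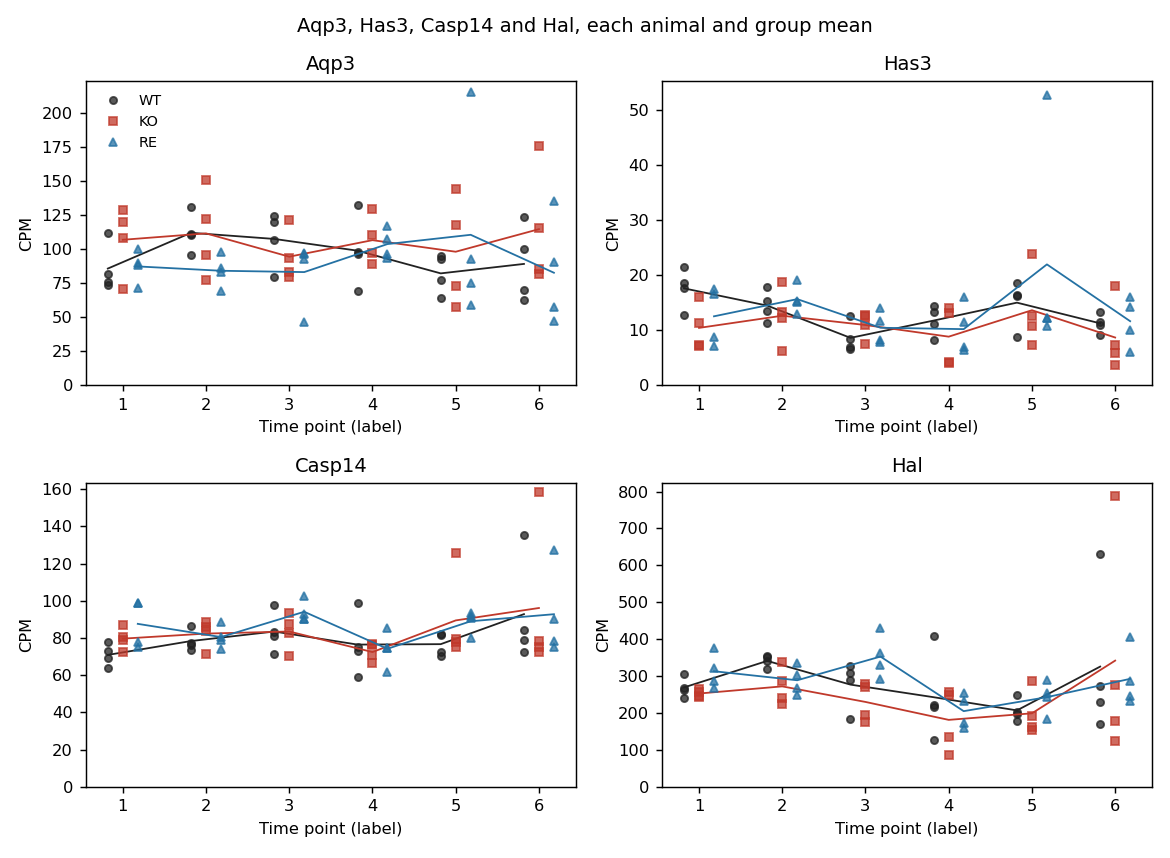
CPM of Aqp3, Has3, Casp14 and Hal (vertical axes) in each animal against the labelled time point (horizontal axis), with a line through the group means of 4 animals; circles are WT, squares KO and triangles RE. The genotypes overlap at most time points, and single animals stand out: replicate 4 of WT and KO at time point 6 for Hal (631 and 789 CPM) and replicate 1 of RE at time point 5 for Has3 (52.8 CPM).

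The mean level over the cycle was then compared between genotypes. Between KO and WT 3 of 7 tested members were called, where 28.2% of all tested genes were (14.6% higher, 13.6% lower in KO). Asprv1 and Blmh were higher in KO. The third is Padi3, which passed the filter on low counts only through WT and RE libraries, so that its call supports no difference. Between RE and WT the count was 0 of 7 in edgeR, also without adjustment (0 with p under 0.05) and by DESeq2 and voom (0 each), where 4.03% of all genes were called, 2.07% higher and 1.96% lower in RE. Between RE and KO 2 of 7 were called, where 22.5% of all genes were (11.5% higher, 11% lower in RE), and these were Asprv1 and Blmh, both lower in RE. The comparisons share animals, so that the RE against KO calls are not independent of those between KO and WT. With 7 members, these counts are not read as shares above those of all genes.

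Asprv1 encodes the retroviral-like aspartic protease SASPase, which cuts the linker between filaggrin units in mouse epidermis. The gene has a single exon on chromosome 6 at 86628164-86629710 (plus strand, GRCm38). Its level ran from 41.8 through a median of 63.9 to 104 CPM in WT, from 33.4 through 98.55 to 261 in KO, and from 29.9 through 60.1 to 103.5 in RE (24 animals each). The ranges overlapped, but 22 of 24 KO animals lay above the WT median and 11 above the highest WT animal. The KO mean was the higher one at 6 of 6 time points, and at time points 2 and 5 every KO animal lay above every WT animal. This is a description, because such separation was not counted over all genes. At time point 2 the means were 65.0 ± 10.5 CPM in WT, 103.5 ± 10.3 in KO and 54.4 ± 8.29 in RE (SD, n = 4). Over the cycle Asprv1 rose in KO by 0.66 ± 0.13 log2 units over WT (± SE, 95% interval 0.40 to 0.92, edgeR adjusted p = 5.74e-05). The RE minus KO difference was -0.73 log2 units (adjusted p = 1.67e-05), with 1 of 24 RE animals above the KO median, and the RE minus WT interval ran from -0.33 to 0.19.

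Blmh encodes bleomycin hydrolase, a cysteine aminopeptidase that finishes the breakdown of deiminated filaggrin to free amino acids. It lies on chromosome 11 at 76924809-76987379 (plus strand), a span that includes the small gene Gm22611. Its level ran from 91.6 through 119.6 to 217 CPM in WT, from 86.2 through 156 to 368 in KO, and from 96.7 through 131.5 to 154 in RE. Of 24 KO animals 22 lay above the WT median and 1 above the highest WT animal, which was replicate 4 of time point 6. At 4 of 6 time points (1, 2, 3 and 5) all KO animals were above all WT animals, again a description without a count over all genes. At time point 5 the means were 115 ± 6.00 CPM in WT, 159 ± 5.14 in KO and 125 ± 19.1 in RE (SD, n = 4). Blmh rose in KO by 0.38 ± 0.09 log2 units over WT (95% interval 0.21 to 0.55, adjusted p = 0.000437), and the RE minus KO difference was -0.34 (adjusted p = 0.00232). No RE animal (0 of 24) exceeded the KO median, and the RE minus WT interval was -0.13 to 0.21.

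**Figure D2:**
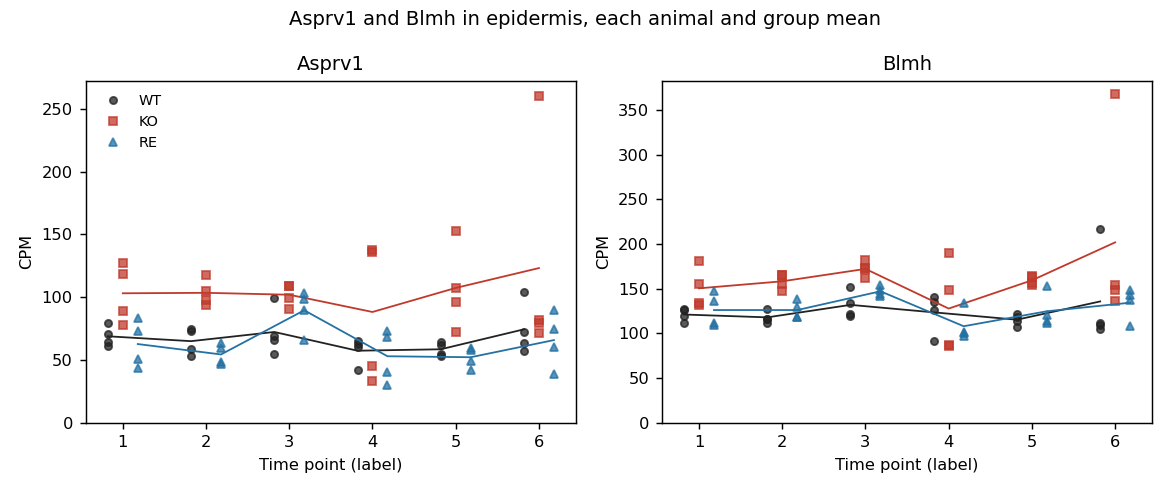
CPM of Asprv1 and Blmh (vertical axes) in each animal against the labelled time point (horizontal axis), with a line through the means of 4 animals; circles are WT, squares KO and triangles RE. The KO line lies above the WT line at all 6 time points for both genes, and replicate 4 of KO at time point 6 (261 and 368 CPM) is far above the other KO animals of that time point.

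Both genes kept their calls without the libraries that stood apart. Leaving out the 3 libraries lowest on the first principal component (replicate 4 of WT and KO and replicate 1 of RE, all at time point 6) gave KO minus WT differences of 0.60 for Asprv1 and 0.34 for Blmh. In KO at time point 4 replicates 3 and 4 were low, with 33.4 and 45.5 CPM of Asprv1 beside 138 and 136 in the other 2 animals, and 86.2 and 87.1 CPM of Blmh beside 189 and 148. Their spinous marker sums were also low, 14890 and 15470 CPM beside 27710 and 23880. Without these 2 animals the differences were 0.74 and 0.44 log2 units.

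Markers of the upper epidermal layers moved with Asprv1 and Blmh. Of 5 spinous markers 5 were higher in KO than in WT, and of 6 granular markers tested 5 were higher, where 14.6% of all genes were, with 0 lower in either list. Of 6 basal markers 0 were higher and 1 was lower, where 13.6% of all genes were lower. Other cell types also moved between KO and WT: of 4 erythrocyte markers 3 were higher (list median 0.99 log2 units) and of 5 melanocyte markers 3 were lower (-0.85). The spinous marker sum had medians of 19390 CPM in WT, 25980 in KO (range 14890 to 57850) and 21590 in RE (16850 to 25620), and the granular sum had 389, 596 and 361 CPM. In bulk tissue, more cells of a layer and more RNA per cell cannot be told apart, and the part of layer composition in the results was not tested. Set against the spinous sum of the same animal, Blmh had a median of 6.20 CPM per 1000 CPM of spinous markers in WT, 6.20 in KO and 5.87 in RE. For Asprv1 the medians were 3.26, 3.72 and 2.80.

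Across the 72 animals Blmh followed the spinous sum with Pearson r = 0.898 on log2 values, and with 0.84 in the 70 animals without replicate 4 of WT and KO at time point 6. Within groups of the same genotype and time point r was 0.879. For Asprv1 the values were 0.776, 0.734 and 0.715. The 2 genes followed each other with r = 0.853, or 0.82 within groups. The genes most like Blmh over the 72 libraries, among 11356 searched, were Eif1ad (r = 0.912), the spinous keratin Krt10 (0.909) and Ephx3 (0.909), an epoxide hydrolase. Krt10 is itself part of the spinous sum, with a mean of 10840 CPM in WT, so the 2 values are not separate. The genes most like Asprv1 were Ephx3 (0.866), Agpat5 (0.865) and Desi1 (0.856). These correlations describe animals that share genotype, layer composition and library preparation.

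**Figure D3:**
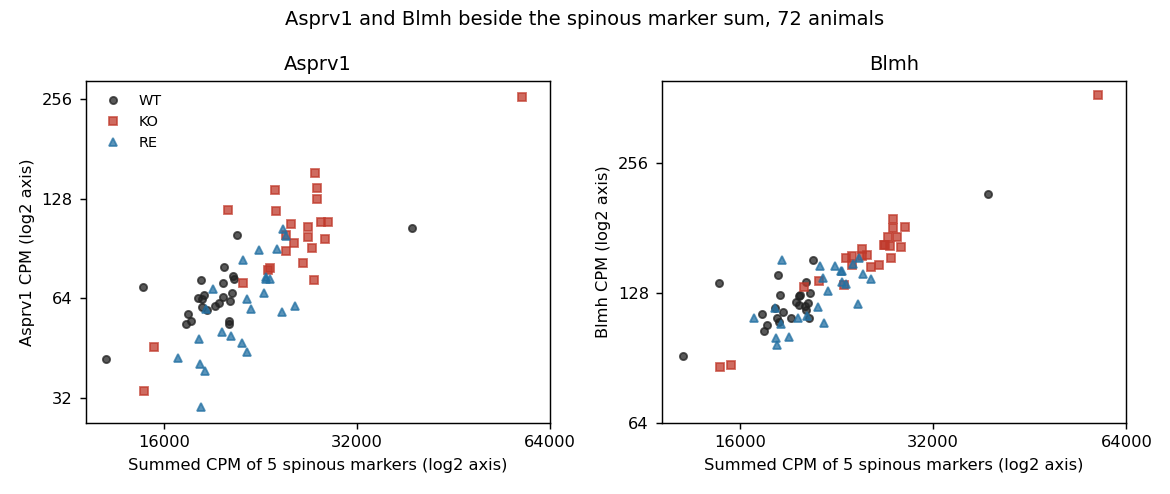
Asprv1 and Blmh (vertical axes, CPM, log2 scale) against the summed CPM of 5 spinous keratinocyte markers (horizontal axis, log2 scale) in 72 animals; circles are WT, squares KO and triangles RE. Both genes climb with the marker sum, Blmh along a narrower band (r = 0.898) than Asprv1 (r = 0.776).

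Casp14 encodes caspase-14, which cleaves filaggrin during cornification and is found mainly in cornifying epithelia. The gene lies on chromosome 10 at 78711991-78718294 (minus strand). Its level ran from 59.0 through 76.7 to 135.5 CPM in WT, from 66.3 through 78.8 to 158 in KO, and from 61.9 through 87.1 to 127 in RE. The 3 genotypes overlapped almost fully. The KO minus WT difference was 0.07 log2 units (95% interval -0.07 to 0.22, adjusted p = 0.507), and the upper bound lies below the size seen for Asprv1. Casp14 had r = 0.616 with the spinous sum over 72 animals, 0.663 within groups and 0.397 without replicate 4 of WT and KO at time point 6. Its median per 1000 CPM of spinous markers was 3.17 in KO beside 4.08 in WT and 4.06 in RE.

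Hal encodes the enzyme that turns free histidine, set free from filaggrin, into urocanate, an absorber of ultraviolet light in the stratum corneum. It lies on chromosome 10 at 93488768-93519304 (plus strand). Its level ran from 126.5 through 265.6 to 631 CPM in WT, from 85.2 through 243 to 789 in KO, and from 159.8 through 277 to 429 in RE. Of 24 KO animals 8 lay above the WT median, and the KO mean was higher at 1 of 6 time points, time point 6. The difference between KO and WT was -0.18 log2 units (95% interval -0.45 to 0.09, adjusted p = 0.351). This value rested in part on 1 animal: without replicate 4 of KO at time point 6 it was -0.33 (adjusted p = 0.0312), and RE minus KO went from 0.21 (0.286) to 0.35 (0.0257). With replicate 4 of WT and replicate 1 of RE at that time point left out as well, KO minus WT was -0.23 (0.0866), not called, and RE minus KO 0.32 (0.0199). With the spinous sum Hal had r = 0.558 over 72 animals and 0.846 within groups, but 0.366 over the 70 animals without replicate 4 of WT and KO at time point 6. Its median per 1000 CPM of spinous markers was 13.9 in WT, 9.61 in KO and 12.6 in RE. Hal and Blmh, which act in succession on filaggrin products, correlated with r = 0.779 within groups and 0.522 over all 72 animals. Genes most like Hal were Sh3bgrl2 (r = 0.875), the chaperone Hspa12a (0.863) and the glycosyltransferase B4galnt2 (0.843).

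Aqp3 encodes aquaporin 3, the glycerol and water channel of living keratinocytes (chromosome 4, 41092722-41098183, minus strand). Its level ran from 62.4 through 95.65 to 132 CPM in WT, from 57.3 through 102.5 to 176 in KO, and from 46.5 through 91.5 to 215 in RE. The KO minus WT difference was 0.14 log2 units (95% interval -0.08 to 0.37, adjusted p = 0.374) and the RE minus KO difference -0.20 (adjusted p = 0.2). Once the animal with 215 CPM (RE, time point 5, replicate 1) was left out, the latter was -0.28 (adjusted p = 0.0414). Aqp3 did not follow the layer sums closely (r = 0.137 with the spinous and -0.157 with the basal sum over 72 animals). The genes most like it were the keratin Krt17 (r = 0.76), the tropomyosin Tpm2 (0.75) and the calpain Capn2 (0.745).

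Has3 encodes a hyaluronan synthase of the cell membrane (chromosome 8, 106870242-106884566, plus strand). Its span overlaps Chtf8 on the other strand, and its counts are uncertain because the sources used here do not state the strand setting. It ran from 6.57 through 13.0 to 21.5 CPM in WT, from 3.58 through 11.0 to 23.8 in KO, and from 6.09 through 12.15 to 52.8 in RE. The KO minus WT difference was -0.26 log2 units (95% interval -0.63 to 0.11, adjusted p = 0.311). The animal with 52.8 CPM, replicate 1 of RE at time point 5, also had 97.5 CPM of the alarmin S100a8, where the other 71 animals had at most 2.62 CPM (median 0.262). The part of that animal's state in the values was not tested. No gene followed Has3 closely; the highest r were those of Crispld2 (0.6), Synpo (0.598) and the interleukin 4 receptor chain Il4ra (0.593).

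**Figure D4:**
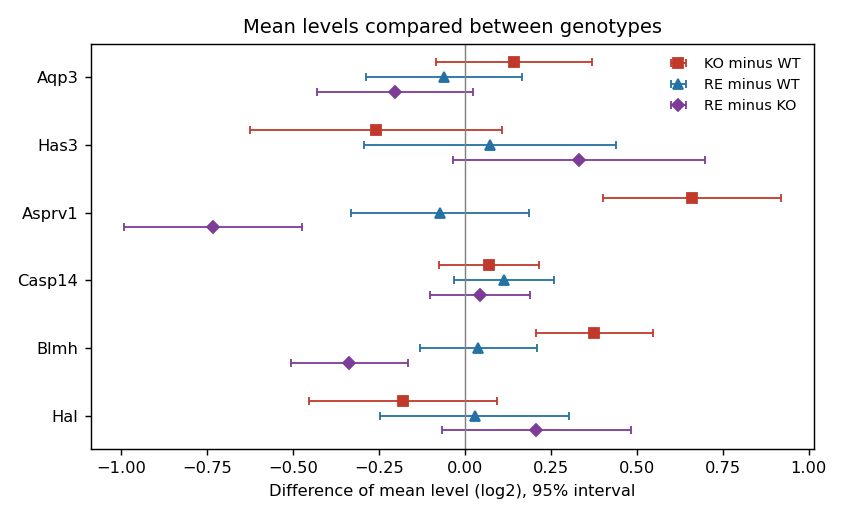
Differences of mean level between genotypes (horizontal axis, log2 units) for 6 members (vertical axis), with 95% intervals from the fit of all 72 libraries; squares are KO minus WT, triangles RE minus WT and diamonds RE minus KO. For Asprv1 and Blmh the intervals that involve KO exclude 0 and that of RE minus WT includes it, and for the other 4 genes every interval includes 0.

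Padi1 and Padi3 encode peptidylarginine deiminases, which turn arginine of filaggrin and trichohyalin into citrulline. The genes are neighbours on the minus strand of chromosome 4, Padi3 at 140785365-140810648 and Padi1 at 140812983-140845778, 2334 bases apart, and Padi1 overlaps Gm13032 on the other strand. Padi1 had at most 5 reads in a WT library, 2 in a KO library and 4 in an RE library, 31, 20 and 30 in all, and was not tested. Padi3 had at most 26 reads in a WT library, 3 in a KO library and 40 in an RE library. It was at 0 in 11, 19 and 15 of 24 libraries, and its total was 106, 8 and 91 reads. Most libraries of each genotype thus had next to no Padi3, and a few libraries of WT and RE held nearly all of it.

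No KO library had 10 or more Padi3 reads (0 of 24), beside 4 of WT and 3 of RE, so Padi3 was tested only through the genotypes where it was high. The fitted KO minus WT difference, -3.34 ± 1.43 log2 units (± SE), is therefore given as a description with no test, and voom gave -1.26. The fitted RE minus KO difference was 2.39, likewise a description. The swing in RE was 4.75 ± 1.58 (adjusted p = 0.0609). It was called without time point 1 (6.85, adjusted p = 0.0301) and when any of 8 single libraries was left out. Dropping the RE library with 40 Padi3 reads (time point 6, replicate 1) raised the adjusted p most, to 0.29. Over all single libraries left out, the swing ran from 3.55 to 5.73. These calls support no rhythm, because Padi3 passed the filter only through WT and RE libraries. Keratins of the inner root sheath of the hair follicle, where Padi3 acts on trichohyalin, moved with it. In the 13 libraries with at least 5 Padi3 reads, Krt71 ran from 0.624 to 17.8 CPM, and in the 45 libraries with 0 Padi3 reads it was at most 0.618 CPM (median 0.134). Over the 72 libraries r on log2(CPM + 0.1) was 0.906 with Krt71, 0.897 with Krt25 and 0.794 with the hair cuticle gene S100a3. Mean Krt71 was 2.26 CPM in WT, 0.344 in KO and 1.43 in RE. Of 13 hair follicle markers 8 were lower in KO than in WT and 0 higher, where 13.6% of all genes were lower, and their summed level spanned 53.7 to 109.9 CPM in WT libraries, 34.1 to 98.2 in KO libraries and 44.1 to 134.8 in RE libraries. The part of follicle cells in the Padi3 values was not tested.

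**Figure D5:**
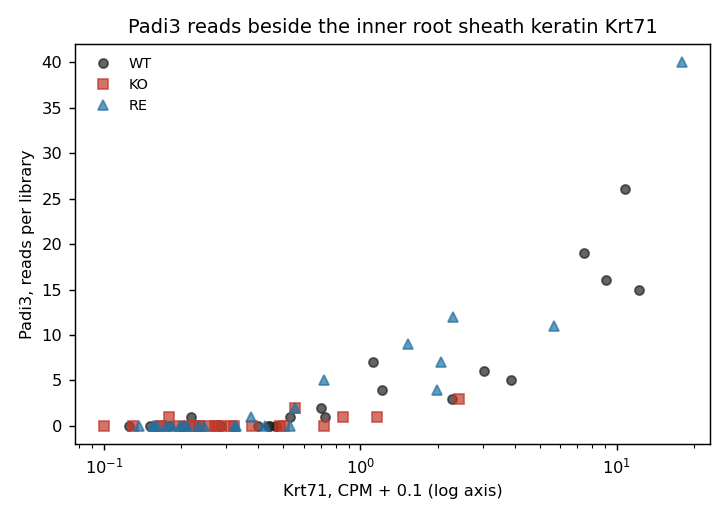
Reads of Padi3 (vertical axis) against Krt71 (horizontal axis, CPM + 0.1 on a log scale) in 72 libraries; circles are WT, squares KO and triangles RE. Libraries with at least 5 Padi3 reads all lie at 0.624 CPM of Krt71 or more, and the highest KO library has 3 Padi3 reads.

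Other genes of the same pathways were read in the same fit. Among substrates related to profilaggrin 4 of 7 were tested, 3 were higher in KO than in WT and 1 was lower, where 14.6% of all genes were higher and 13.6% lower. Hornerin (Hrnr) rose by 1.20 ± 0.21 log2 units, from 54.9 ± 23.9 to 126 ± 69.5 CPM (± SD, n = 24). Filaggrin-2 (Flg2) rose by 0.70 ± 0.21. Repetin (Rptn) rose by 0.99 ± 0.27 but was low, with 0.272 ± 0.223 CPM in WT and 0.565 ± 0.490 in KO (± SD). Trichohyalin (Tchh), a substrate of the inner root sheath and tongue, was lower by -0.43 ± 0.07 in KO and by -0.38 ± 0.07 in RE, each against WT. The median of the 4 was 0.84, beside 0.00 for all genes. In RE against KO 3 of the 4 were lower, Hrnr, Flg2 and Rptn, with differences of -0.93, -0.81 and -0.74 log2 units. Flg2 and Hrnr are also on the granular marker list.

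Of 15 tested proteases of the cornified layer and their inhibitors 9 were higher in KO than in WT and 0 lower, where 14.6% of all genes were higher and 13.6% lower. Their median difference was 0.17 log2 units. By smallest adjusted p these began with matriptase (St14, 0.19 ± 0.03), the calpain Capn1 (0.10 ± 0.03), the convertase Furin (0.15 ± 0.04) and cystatin M/E (Cst6, 0.64 ± 0.17), an inhibitor of legumain and cathepsins. Between RE and KO 8 of 15 were lower and 0 higher, where 11% of all genes were lower. Between RE and WT edgeR called 0 of 15 (0 also with p under 0.05 before adjustment). The cathepsins Ctsh (0.64 ± 0.07) and Ctsl (1.16 ± 0.25) swung over the day in WT, 2 of the 15, a share near the 11% of all genes. In KO 2 of the 15 were called rhythmic, Furin and Capn1, where 5.87% of all genes were. In RE 1 of the 15 was, Capn1, where 2.7% of all genes were.

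The list drawn up for enzymes of deimination and of the moisturising factor did not move one way. Of 7 tested 2 were higher and 2 lower in KO than in WT, where 14.6% of all genes were higher and 13.6% lower. The higher ones were the glutamyl cyclotransferase Ggct (0.51 ± 0.08) and the gamma-glutamyl hydrolase Ggh (0.51 ± 0.07). Ggh is on the list but is not an established enzyme of the moisturising factor. The lower ones were the 5-oxoprolinase Oplah (-0.23 ± 0.06) and Amdhd1 (-0.90 ± 0.17). Amdhd1 acts downstream of urocanate in histidine breakdown and had 0.796 CPM in WT, 0.421 in KO and 0.824 in RE. Amdhd1 was 0.92 ± 0.17 higher in RE than in KO.

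Around Has3, 11 genes of hyaluronan metabolism were tested and 4 differed between KO and WT, a share near the 28.2% of all genes. The hyaluronidases Hyal1 (0.16 ± 0.06) and Hyal2 (0.13 ± 0.04) were higher, and the surface hyaluronidase Cemip2 (-0.19 ± 0.07) and the UDP-glucose enzyme Ugp2 (-0.13 ± 0.03) were lower. Cemip2 and Ugp2 were lower in RE than in WT as well, with differences of -0.35 and -0.12 log2 units. Around Aqp3, 13 genes of water, glycerol and osmolyte transport were tested and 3 differed between KO and WT, a share not above the 28.2% of all genes. The osmotic stress factor Nfat5 (0.23 ± 0.06) and Aqp9 (0.42 ± 0.13) were higher in KO. The taurine transporter Slc6a6 was lower in KO by -0.66 ± 0.14 and 0.71 ± 0.14 higher in RE than in KO, with 544 ± 258 CPM in WT, 316 ± 118 in KO and 519 ± 183 in RE (SD, n = 24). Slc6a6 was also the 1 gene of the 13 with a called rhythm in WT, where 11% of all genes had one. Its swing was 1.74 ± 0.28 log2 units with its peak 9 h after time point 1 (edgeR adjusted p = 4.53e-05). Beside Casp14, among the genes of cornification the nuclease Dnase2a was higher in KO than in WT (0.24 ± 0.05 log2 units). Of all tested genes 14.6% were higher. This single gene gives no direction for the list, some results of which are not reported here.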

How the data were processed

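RNA of interfollicular epidermis was sequenced from 72 mice, 3 genotypes by 6 time points by 4 animals, grouped by GEO's labels. Each deposited file gives unnormalised counts of reads for Ensembl genes. Trimming with Trimmomatic, alignment with TopHat2 2.1.1 to GRCm38 (mm10) and counting with featureCounts are named in the submitters' processing notes. The sources used here do not state the annotation release, strand setting or handling of multi-mapping reads. Symbols and coordinates came from GENCODE M21 of GRCm38, which matched 45229 of 46078 identifiers.

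Genes were kept by filterByExpr (18 groups, minimum count 10), leaving 18538. edgeR 4.0.16 (R 4.3.3) fitted 1 quasi-likelihood model with TMM factors (0.866 to 1.11) to all libraries: per genotype a mean, a cosine and a sine of 24 h, with even steps of 4 h assumed because the labels give no hour per time point. Rhythms, differences of rhythm and differences of mean level were F tests with Benjamini-Hochberg adjustment over all 18538 genes, called at an adjusted p under 0.05. CPM are counts scaled to the TMM-adjusted library total, and log2 CPM for correlations used a prior count of 2. The marker list of 7 granular genes includes Flg, which was not tested. In 108 pairs of animals of the same group, counts differed by more than sampling noise. The members, gene lists and named genes (all members, and up to 4 called genes of smallest adjusted p per list and comparison, with the 3 genes most correlated with each member) were chosen with earlier results of these data known. Some results of the cornification list are not reported here. Ratios to the spinous marker sum and the comparison with Krt71 were added after values were seen. Alternatives were DESeq2 1.42.0 size factors and test, limma-voom 3.58.1, no filter, the compared genotypes alone, a replicate block, time point as a factor, and each time point or library left out. Procedures were tested on simulated counts. Promoter sequences are from RefSeq (GRCm38.p6).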

Additional observations from a re-analysis of the deposited data

Results flagged for a closer look

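In each group of 4 animals the highest or lowest CPM of 6 members (Padi1 and Padi3 left out for low counts) was compared with the rest. In 8 of 108 groups one animal stood apart by Dixon's criterion, and chance gives about 1 in 20 groups. Replicate 4 of KO at time point 6 was the highest of its group for Asprv1 (261 CPM, others 71.3 to 81.7), Blmh (368 CPM, others 136 to 154) and Casp14 (158 CPM, others 72.3 to 78.6). Replicate 4 of WT at time point 6 was the highest for Blmh (217 CPM, others 105 to 112). Both had the lowest basal and highest spinous marker sums of the series. Replicate 2 of KO at time point 5 was the highest for Casp14 (126 CPM, others 75.2 to 79.4), and replicate 2 of RE at time point 4 the highest for Blmh (134 CPM, others 96.7 to 101). Replicate 1 of RE at time point 5 was the highest for Has3 (52.8 CPM, others 10.7 to 12.1). Replicate 1 of RE at time point 3 was the lowest for Aqp3 (46.5 CPM, others 92.4 to 96.8).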

How the results depend on the processing

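Of 5481 recomputed member values 5450 kept their direction and side of the threshold, 1 lost its call, 17 gained one and 13 changed sign. Under the settings run, Asprv1 and Blmh kept their calls between KO and WT and between RE and KO; leaving out single animals gave 0.56 to 0.70 and 0.29 to 0.43 for KO minus WT. The count of members rhythmic in RE was 1 without time point 1 (Padi3). With single animals left out that count ran from 0 to 1, the count with a different rhythm in RE and WT from 0 to 1, the count differing in mean level between KO and WT from 3 to 4, and that between RE and KO from 2 to 3; the other 5 counts stayed. The gains were for Padi3, Hal and Aqp3. Those of Padi3 support no rhythm or difference, because it passed the filter only through WT and RE libraries. The 13 changes of sign were all in uncalled RE minus WT differences. For Hal they were -0.0428, -0.0912 and -0.048 without time points 1, 3 and 5; without single animals its value ran from -0.0066 to 0.127, negative without WT time point 4 replicate 4 (-0.0028), RE time point 3 replicate 4 (-0.0059) and RE time point 6 replicate 1 (-0.0066). For Has3 they were -0.0239 with voom, -0.0252 and -0.091 without time points 2 and 5; without single animals it ran from -0.125 (RE time point 5 replicate 1) to 0.113. For Blmh they were -0.0054 and -0.0165 without time points 3 and 5, and for Aqp3 the value was 0.0236 without time point 6. The cause was not tested. The labels do not say whether replicate numbers pair the animals. Same-numbered animals deviated together with a median r of 0.05 (72 pairs, -0.49 to 0.68), beside -0.03 for animals of other numbers. Of the 72 pairs 28 had r over 0.1. Among 4 candidates each, 24 of 72 correlated best with their own number, so a pairing is neither shown nor excluded. With the replicate block the counts were 3 for KO against WT, 2 for RE against KO and 0 elsewhere, with no call changed. Padi1 and Padi3 had at most 5 and 40 reads in a library, which limits what can be read from them. The part of depth in these counts was not tested.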
